A study of Drosophila melanogaster with 6 samples.

Results

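The genes examined here are the core of the fly cell death machinery: the IAP antagonists rpr, hid, grim and skl, the inhibitor Diap1, the initiator caspase Dronc with its adaptor Dark, and the effector caspases Drice and Dcp-1. They were chosen by their FlyBase symbols, and all 9 were found among the 17895 genes of the count table. RNA-seq was performed on whole larval intestines, with 3 libraries labelled EcRi and 3 labelled control. All larvae carried Tub-LexA, LexO-spok RNAi, which removes an enzyme of ecdysone biosynthesis, UAS-EcR RNAi and Tub-GAL80ts, which holds GAL4 back at low temperature. According to the crosses in the methods, the EcRi larvae also carried Myo1A-GAL4, which drives in intestinal enterocytes, and the control larvae carried no GAL4 driver, whereas the control titles carry the tag myo1a-con. By the same methods, eggs were laid over about 8 h, vials stayed at 18 °C for 6 days and the selected larvae stayed at 29 °C for a further 4 days, so that all libraries come from larvae of the same age. EcR represses its targets in the absence of ecdysone, and its knockdown is used to release them. The comparison thus asks which cell death genes differ between the EcRi and control larvae, both without their own ecdysone. By the crosses, the GAL4 driver and the targeting of EcR differ together, and their effects cannot be told apart here.

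In *Drosophila*, Diap1 is a ubiquitin ligase that holds caspases in check in living cells. The products of rpr, hid, grim and skl bind Diap1 and release the caspases from it. Dronc is then activated on the adaptor Dark and in turn cleaves the effector caspases Drice and Dcp-1. At the onset of metamorphosis, a pulse of ecdysone induces rpr and hid in the larval midgut, which is then dismantled. Removal of the larval midgut depends to a large part on autophagy.

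Counts summed to between 200890663 and 246255664 per library. CPM here are counts relative to library size after TMM scaling, a method that sets a library factor from the bulk of the genes. The factors lay between 1.21 and 1.30 in EcRi and between 0.713 and 0.845 in the control, so the scaling has weight in this comparison. EcR, the gene targeted by the hairpin, had 28.8, 28.7 and 32.0 CPM in the EcRi libraries, against 45.6, 28.3 and 26.6 CPM in the control libraries, and the genotypes overlapped. On the log2 scale EcR differed by -0.17 ± 0.21 (standard error, edgeR adjusted p = 0.517). The RNA levels of whole intestines thus do not show the knockdown, and directions below are those of the libraries labelled EcRi.

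Of the 9 genes, 7 had enough counts to be tested, and of these 6 were higher and 1 was lower in EcRi (quasi-likelihood test of edgeR over 12193 genes and elements, adjusted p below 0.05). Among everything tested, 30.1% of entries were higher, 29.3% were lower and 59.5% changed in either direction, so a call alone is common in these libraries. The sizes of the changes spread widely within the group. The log2 fold change ranged from -0.88 for Dcp-1 to 4.56 for rpr, with a median of 0.94 over the 7 tested genes, beside a median of 0.03 over all tested entries. The EcRi and control libraries did not overlap for any of the 7, as was the case for 68.3% of all tested entries (34.9% with EcRi higher and 33.4% with EcRi lower).

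**Figure D1:**
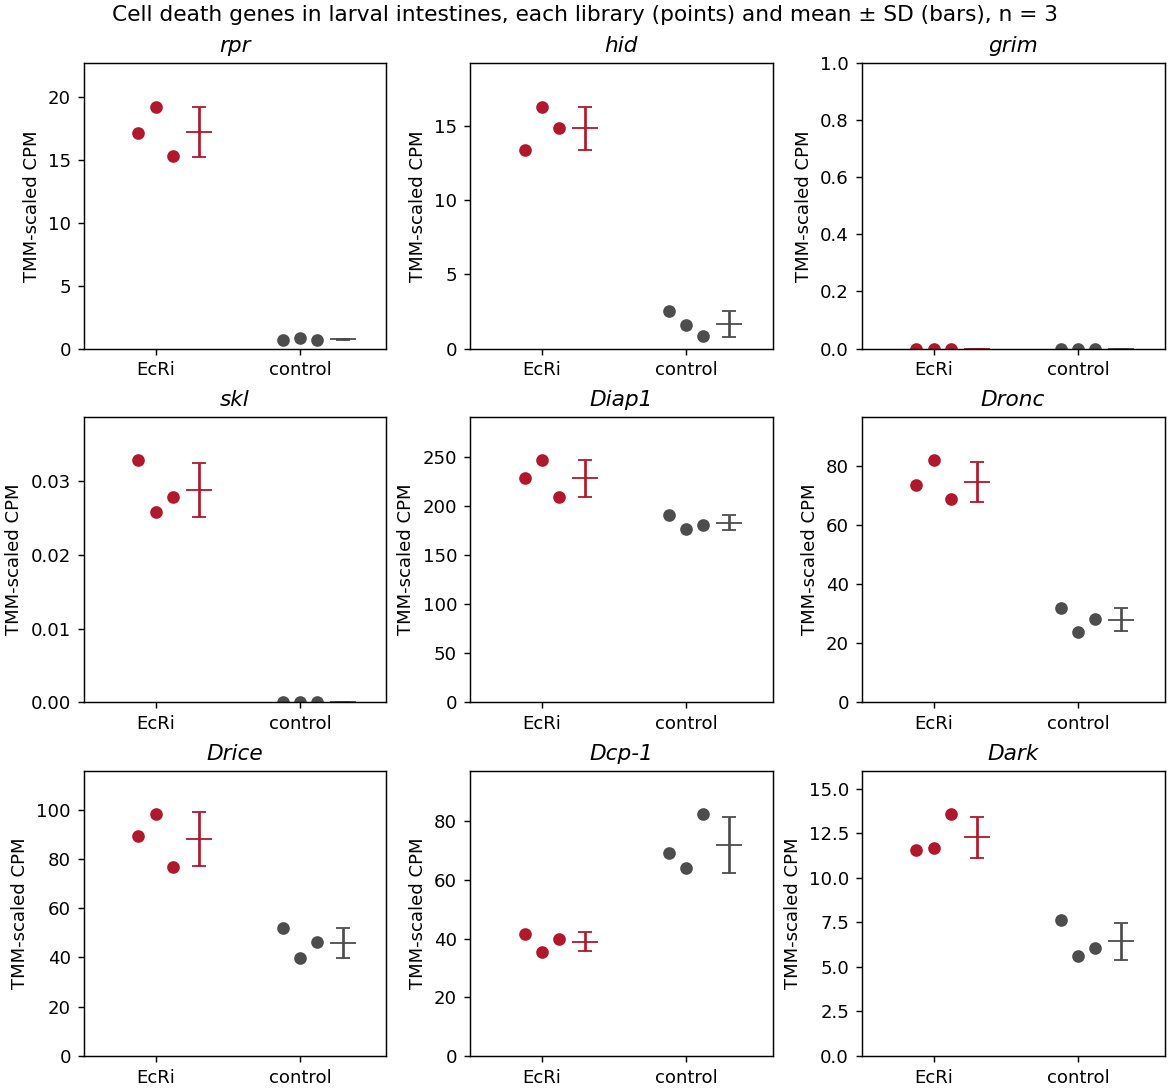
CPM after TMM scaling (y axis, from 0, a separate scale for each gene) of the 9 genes in each of the 3 EcRi (red) and 3 control (grey) libraries, with the mean ± SD at the side. The libraries of rpr sit between 15.3 and 19.2 CPM in EcRi and between 0.696 and 0.799 CPM in the control, Dcp-1 is the gene with higher control libraries, and grim is at 0 throughout.

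rpr (FBgn0011706, minus strand of chromosome 3L, 18397535 to 18398435 in the BDGP6 genome) encodes a short protein that displaces caspases from Diap1, and it showed the strongest change. It had 17.1, 19.2 and 15.3 CPM in the EcRi libraries, against 0.696, 0.799 and 0.697 CPM in the control libraries. Every EcRi library was far above every control library, and the spread within each genotype was small. The mean was 17.2 ± 1.98 CPM in EcRi and 0.731 ± 0.0595 CPM in the control (SD, n = 3 each), a 23.5-fold difference. The log2 fold change was 4.56 (standard error 0.13, adjusted p = 5.93e-07), and 2.71% of all tested entries had a larger one. In raw counts this is 4163, 5957 and 4386 in EcRi against 138, 140 and 110 in the control, so rpr was detected in both genotypes.

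hid (FBgn0003997, minus strand of 3L, 18167745 to 18185641), the antagonist that growth signals and survival pathways restrain in other tissues, moved in the same direction. It had 13.4, 16.3 and 14.8 CPM in the EcRi libraries, against 2.55, 1.56 and 0.849 CPM in the control libraries. The EcRi libraries were close to each other, whereas the coefficient of variation was 9.81% in EcRi and 51.7% in the control. The mean was 14.9 ± 1.46 CPM in EcRi and 1.65 ± 0.854 CPM in the control (SD, n = 3 each). hid was 8.95-fold higher in EcRi (log2 fold change 3.16, standard error 0.39, adjusted p = 0.000782). Without control replicate 1, its highest control library, the log2 fold change was 3.60, and without control replicate 3, its lowest, it was 2.86. Control replicate 1 was also the highest of the control libraries for the fat body genes Lsp1beta (389 CPM, against 104.5 and 31.5 CPM in the other controls) and apolpp. Their part in the spread of hid was not tested.

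grim and skl, the remaining antagonists of the same chromosomal region, had no or few counts in these intestines. grim (FBgn0015946, minus strand of 3L, 18302719 to 18304417) had 0 counts in all 6 libraries, which together hold 1333488435 counts. A total of 0 allows up to 3 counts, or 0.00219 CPM over all libraries, provided that reads on all exon bases of grim were counted. Of its 1699 exon bases, 1290 are shared with exons of annotated non-coding RNAs on either strand, and 409 are its own. These non-coding RNAs lie wholly within grim and also had 0 counts. If reads on shared bases were not counted, these RNAs would be at 0 in any case, and the limit covers the 409 bases alone. skl (FBgn0036786, minus strand of 3L, 18438561 to 18439942) had 8 counts in each EcRi library and 0 in each control library. Set against a limit of 3 counts over the control libraries together, and with its 24 EcRi counts taken as exact, skl was at least 5.06-fold higher in EcRi. If low counts hold both reads of a pair, the limit is 6 counts for either gene, and the bound for skl is 2.53-fold. The level of skl in EcRi was only 0.0289 ± 0.00362 CPM (SD, n = 3). Neither gene had enough counts for the test. Without that filter, the adjusted p of skl was 0.0140 and grim still had no value.

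These 4 genes lie on the same strand within 272.2 kb of chromosome 3L, from 18167745 to 18439942, in the order hid, grim, rpr and skl with gaps of 117.1, 93.1 and 40.1 kb. The interval holds 14 other annotated genes and elements. Of these, only CG7320, a protein-coding gene between hid and grim, passed the filter on low counts. CG7320 had 429, 878 and 650 counts in EcRi against 181, 62 and 40 in the control, and its level was 2.29 ± 0.536 CPM in EcRi and 0.507 ± 0.355 CPM in the control (SD, n = 3 each). CG7320 was higher in EcRi (log2 fold change 2.16, standard error 0.49, adjusted p = 0.00747). Without control replicate 1, its highest control library, the log2 fold change was 2.89. It was 1.96 without control replicate 2 and 1.86 without control replicate 3. The other 13 entries of the interval had at most 7 counts in any library.

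**Figure D2:**
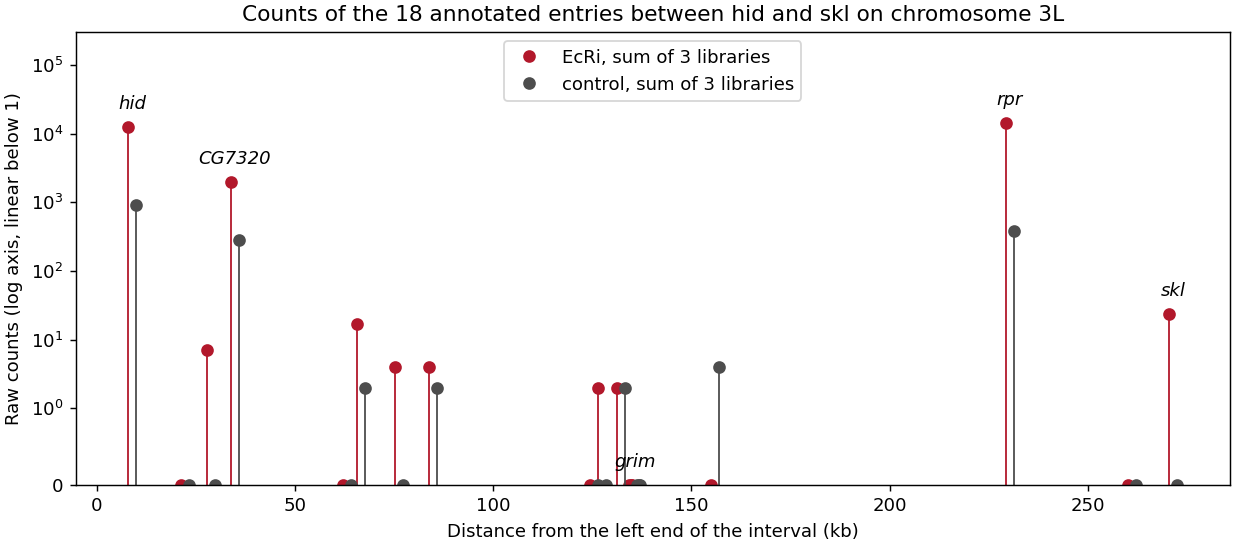
Raw counts summed over 3 libraries (y axis, log scale that is linear below 1) of the 18 annotated genes and elements between hid and skl, plotted by the distance of their centre from the left end of the interval (x axis, kb), for EcRi (red) and control (grey). hid, CG7320 and rpr stand out in both genotypes, skl has counts in EcRi alone, and grim is at 0.

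Diap1 (FBgn0260635, minus strand of 3L, 16038410 to 16051034), the inhibitor that the antagonists act on, was the most abundant of the 9 genes. With TMM scaling it differed little between genotypes. It had 228.7, 246.4 and 208.9 CPM in the EcRi libraries, against 191.1, 176.2 and 180.6 CPM in the control libraries. The libraries did not overlap, but the lowest EcRi and the highest control library were close. Diap1 was 1.25-fold higher in EcRi (log2 fold change 0.32, standard error 0.10, adjusted p = 0.0237). Without TMM its log2 fold change was 0.97 (adjusted p = 0.000181), beside a median of 0.68 over all tested entries. The call with TMM held without EcRi replicate 3 (adjusted p = 0.0144) and was lost without any other single library. The adjusted p rose to 0.0700 without EcRi replicate 1, 0.0683 without EcRi replicate 2, 0.0509 without control replicate 1, 0.0827 without control replicate 2 and 0.0561 without control replicate 3, and it was 0.0599 with replicate number as a block, with log2 fold changes between 0.26 and 0.33 in these fits.

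The balance between antagonists and inhibitor does not depend on the scaling when it is taken within a library. Per kilobase of exon, the counts of rpr, hid, grim and skl together were 0.307, 0.324 and 0.311 times those of Diap1 in the EcRi libraries. In the control libraries this ratio was 0.0231, 0.0227 and 0.0171. The ratio was 15.1-fold higher in EcRi, with no overlap between genotypes. rpr made up 85.0, 84.0 and 82.0% of the antagonist counts per kilobase in the EcRi libraries and 54.9, 69.6 and 78.5% in the control libraries, and nearly all of the rest came from hid. In CPM, the antagonists summed to 32.1 ± 3.02 in EcRi and 2.38 ± 0.850 in the control (SD, n = 3 each).

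Dronc (FBgn0026404, plus strand of 3L, 9968479 to 9971002), the initiator caspase on which most apoptosis in the fly depends, had 73.5, 82.0 and 68.8 CPM in the EcRi libraries, against 31.8, 23.9 and 28.3 CPM in the control libraries. All EcRi libraries lay well above all control libraries. Dronc was 2.67-fold higher in EcRi (log2 fold change 1.42, standard error 0.12, adjusted p = 5.51e-05). Dark (FBgn0263864, plus strand of 2R, 17020027 to 17026703), the Apaf-related adaptor on which Dronc assembles, had 11.5, 11.7 and 13.6 CPM in EcRi, against 7.61, 5.62 and 6.04 CPM in the control. The genotypes again did not overlap, and Dark was 1.91-fold higher in EcRi (log2 fold change 0.93, standard error 0.14, adjusted p = 0.000684). Of the 4883 exon bases of Dark, 2779 lie opposite an antisense RNA, asRNA:CR44390, which had at most 4 counts in a library.

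Dronc gained on its inhibitor and on its adaptor. The ratio of Dronc to Diap1, in counts per kilobase, was 0.501, 0.519 and 0.514 in the EcRi libraries, against 0.260, 0.211 and 0.245 in the control libraries. The ratio of Dark to Dronc was 0.0648, 0.0587 and 0.0814 in EcRi, against 0.0987, 0.0971 and 0.0880 in the control. Neither ratio overlapped between genotypes, although the Dark to Dronc ratio of EcRi replicate 3 came close to that of control replicate 3. The level of the Dark to Dronc ratio also depends on how reads on the shared exon bases of Dark were assigned.

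The effector caspases moved in opposite directions. Drice (FBgn0019972, plus strand of chromosome 3R, 29799658 to 29801584), the main executioner caspase of the fly, had 89.2, 98.2 and 76.7 CPM in the EcRi libraries, against 51.9, 39.6 and 46.1 CPM in the control libraries. All EcRi libraries were above all control libraries, and Drice was 1.92-fold higher in EcRi (log2 fold change 0.94, standard error 0.13, adjusted p = 0.000572). Dcp-1 (FBgn0010501, plus strand of 2R, 23551313 to 23553547), a close relative of Drice that is also linked to autophagy in the germ line, had 41.6, 35.3 and 40.0 CPM in EcRi, against 69.1, 64.1 and 82.4 CPM in the control. Here all EcRi libraries were below all control libraries. Dcp-1 fell in EcRi (log2 fold change -0.88, standard error 0.12, adjusted p = 0.000422). It was 1.85-fold higher in the control.

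The fall of Dcp-1 was the only call among the tested genes that was lost without TMM. With total counts and no TMM, the median over all tested entries was 0.68 in place of 0.03, 57.3% of entries were higher, 12.7% were lower and 69.9% changed in either direction. Dcp-1 then had a log2 fold change of -0.22 (adjusted p = 0.0960), below that median but no longer called. The other 6 tested genes rose with both scalings. The gene pita overlaps Dcp-1 on the opposite strand and shares 239 of its 1749 exon bases, and its own log2 fold change was 0.24 (adjusted p = 0.0405), opposite in sign to that of Dcp-1. How shared reads were assigned is not given in the sources used here.

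**Figure D3:**
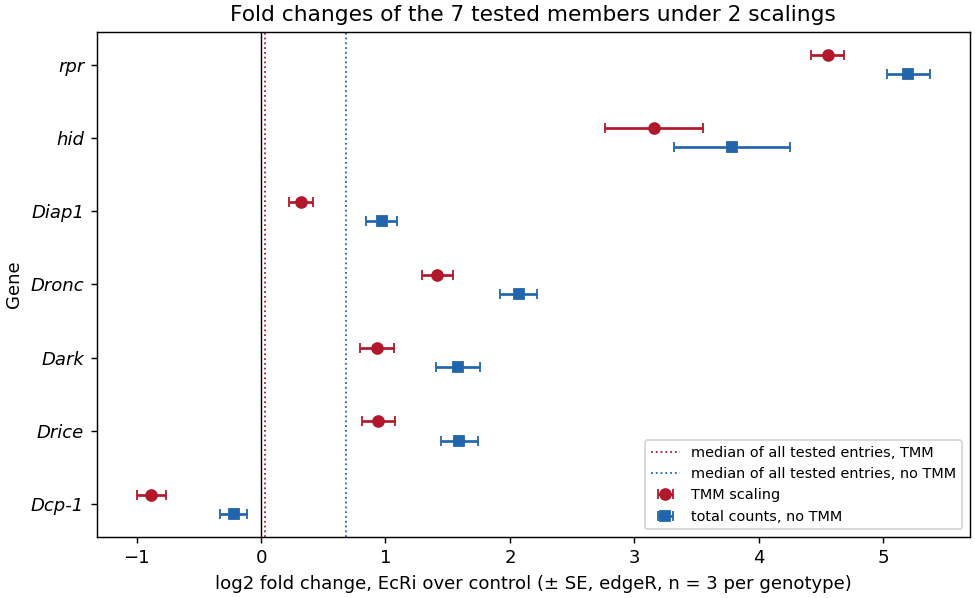
Log2 fold change of EcRi over control with its standard error (x axis, edgeR, n = 3 per genotype) for the 7 tested genes (y axis), with TMM scaling (red circles) and with total counts only (blue squares). The dotted lines mark the median of all tested entries, 0.03 with TMM and 0.68 without, and Dcp-1 lies to the left of these medians under either scaling.

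The ratio between the effector caspases does not depend on that choice. In counts per kilobase, the ratio of Drice to Dcp-1 was 1.95, 2.53 and 1.74 in the EcRi libraries, against 0.682, 0.560 and 0.508 in the control libraries. Drice was thus the more abundant effector in each EcRi library and Dcp-1 in each control library, and the ratio was 3.53-fold higher in EcRi. The sum of both was similar. Drice and Dcp-1 together had 130.8, 133.4 and 116.7 CPM in EcRi, against 121.0, 103.7 and 128.5 CPM in the control, and these ranges overlapped.

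**Figure D4:**
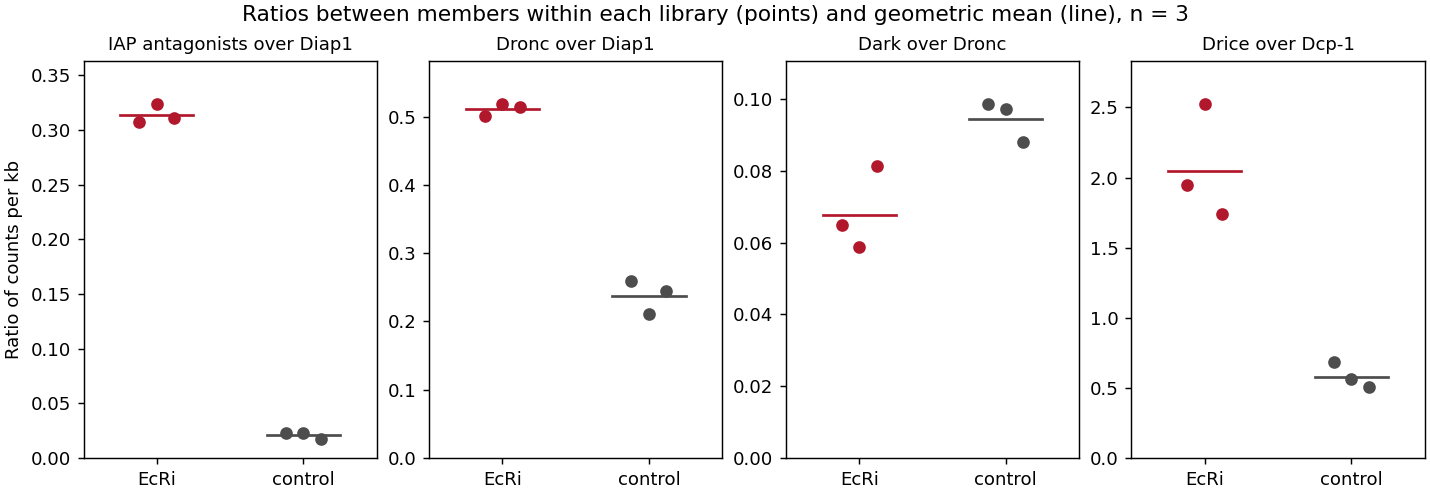
Ratios between genes within each library, in counts per kilobase of exon (y axis, linear from 0), for EcRi (red) and control (grey), with lines at the geometric mean of 3 libraries. The antagonists over Diap1, Dronc over Diap1 and Drice over Dcp-1 were higher in every EcRi library than in every control library, and Dark over Dronc was lower.

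Compared per kilobase of exon, the order of the genes differed between genotypes. In EcRi, Diap1 came first with 72.5 ± 5.98 CPM per kb, followed by Drice with 45.7 ± 5.60, Dronc with 37.1 ± 3.33, Dcp-1 with 22.3 ± 1.88, rpr with 19.1 ± 2.20, hid with 3.70 ± 0.363 and Dark with 2.51 ± 0.232 (SD, n = 3). The ranges of neighbours over the EcRi libraries were separate, except those of Drice and Dronc and those of Dcp-1 and rpr. Within each EcRi library Drice was above Dronc. rpr was above Dcp-1 in EcRi replicate 2 (21.3 against 20.2 CPM per kb) and below it in EcRi replicates 1 and 3. Of the 4883 exon bases of Dark, 2779 are shared with an antisense RNA. If reads on these bases were not counted, the level of Dark per kilobase is too low, and its place below hid in EcRi is uncertain. In the control, Diap1 again came first with 58.1 ± 2.43 CPM per kb, followed by Dcp-1 with 41.1 ± 5.41, Drice with 23.8 ± 3.20, Dronc with 13.9 ± 1.97, Dark with 1.32 ± 0.215, rpr with 0.811 ± 0.0661 and hid with 0.411 ± 0.213 (SD, n = 3). The ranges of all neighbours were separate in the control. rpr was thus below Dark in each control library and above it in each EcRi library.

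Marker genes of several cell types also differed between the libraries. In whole intestines, fewer cells of a type and less RNA per cell cannot be told apart. The counts below stand beside 30.1% of all tested entries higher and 29.3% lower, or 57.3% higher and 12.7% lower without TMM. Of 7 enterocyte genes, 3 were lower in EcRi (mex1, whose log2 fold change was -0.43 and turned to 0.22 without TMM, Jon65Aiii and Jon65Aiv) and 4 did not pass the test, with the list summing to between 10397 and 16898 CPM in EcRi and between 61318 and 111040 CPM in the control, mostly from the Jonah proteases. Myo31DF, the gene whose enhancer the Myo1A driver uses, had 661 ± 26.5 CPM in EcRi and 688 ± 30.2 CPM in the control (SD, n = 3 each, log2 fold change -0.06, adjusted p = 0.655), and without TMM its log2 fold change was 0.60 (adjusted p = 0.00176). All 5 muscle genes were lower, with sums of 665 to 831 CPM in EcRi and 2279 to 2760 CPM in the control. Of 5 tracheal genes, 4 were higher, and without TMM 5 were. The sums were 612 to 694 CPM in EcRi and 72.6 to 111.8 CPM in the control, mostly from serp and verm. btl did not pass with TMM (log2 fold change 0.18, adjusted p = 0.409). vvl lost its call with replicate number as a block (adjusted p = 0.0696). Of 5 progenitor genes 4 were higher (60.2 to 88.2 CPM in EcRi, 35.0 to 49.4 CPM in the control), and without TMM 5 were. The largest change among them was that of Delta, with 6.29 ± 1.29 CPM in EcRi and 1.55 ± 0.355 CPM in the control (SD, n = 3 each, log2 fold change 2.02, adjusted p = 0.000151), while zfh2 lost its call with replicate number as a block (adjusted p = 0.0697). Of 5 enteroendocrine genes 0 passed the test (74.2 to 83.4 CPM in EcRi, 76.4 to 86.9 CPM in the control), and without TMM 3 were higher. Of 5 haemocyte genes 0 passed as well (16.3 to 33.3 CPM in EcRi, 17.9 to 26.4 CPM in the control), and without TMM 3 were higher. NimC1, a haemocyte receptor, came close, with 0.830, 2.64 and 1.06 CPM in the EcRi libraries, against 0.580, 0.565 and 0.817 CPM in the control libraries (adjusted p = 0.0523), and EcRi replicate 2 was highest for NimC1 and for Hml. Of 5 fat body genes 1 was higher, with sums that overlapped (224 to 1106 CPM in EcRi, 38.4 to 496 CPM in the control) and that were highest in EcRi replicate 3 and control replicate 1. The gene that passed was Fbp1, with 201.0, 84.1 and 416 CPM in the EcRi libraries, against 7.05, 0.948 and 1.07 CPM in the control libraries (log2 fold change 6.27, adjusted p = 0.00771). Of 5 imaginal disc genes 3 were higher, and without TMM 5 were (sums of 78.6 to 98.4 CPM in EcRi, 47.3 to 54.8 CPM in the control). These sums came mostly from nub (84.7 CPM in EcRi, 48.8 CPM in the control), so they describe nub and not imaginal disc tissue. vg, Ubx, Antp and ap were at or below 1.96 CPM on average in either genotype. The glue genes Sgs3, Sgs4, Sgs7 and Sgs8 that define salivary glands were at or below 0.0845 CPM on average in either genotype, while fkh, also expressed in the gut, was higher (81.9 CPM in EcRi, 46.4 CPM in the control). The part of these shifts in the levels of the cell death genes was not tested.

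Further genes of the pathway were taken from lists written by role, and their counts stand beside 30.1% of all tested entries higher and 29.3% lower, or 57.3% higher and 12.7% lower without TMM. Among 11 genes that act with or beside Diap1, 4 were higher and 1 was lower (median log2 fold change 0.11). Bruce, a giant inhibitor of apoptosis with ubiquitin-conjugating activity, rose by 0.71 on the log2 scale (adjusted p = 0.00177), Ubc6, a ubiquitin-conjugating enzyme, by 0.44 (adjusted p = 0.00556) and morgue, a protein that promotes the loss of Diap1, by 0.32 (adjusted p = 0.0172). Prx4, a peroxidase also known as Jafrac2 that can bind Diap1 once released, had a log2 fold change of -1.92 (adjusted p = 8.57e-06). Diap2, the other IAP with a ligase domain, had 77.3 CPM in EcRi and 70.6 CPM in the control and did not pass (adjusted p = 0.237). With replicate number as a block, 2 of the list were higher, since morgue (adjusted p = 0.0518) and STUB1 (adjusted p = 0.0560) no longer passed, and without TMM 10 were higher.

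Of 8 other caspases, Bcl-2 relatives and adaptors, 3 were higher and 2 were lower (median log2 fold change 0.16). The caspases Strica and Damm rose, with log2 fold changes of 0.96 (adjusted p = 0.000121) and 0.82 (adjusted p = 0.00239). The fly Bcl-2 relatives split: Buffy, which is mostly protective, had a log2 fold change of 1.13 (adjusted p = 9.79e-05), and Debcl, which promotes death, had one of -1.10 (adjusted p = 3.15e-05). Dredd, the caspase of the Imd immune pathway, had a log2 fold change of -0.24 (adjusted p = 0.0446), which turned to 0.41 without TMM. With the replicate block its adjusted p was 0.0967. Decay, an effector-like caspase, had 320 CPM in EcRi and 271 CPM in the control and did not pass (adjusted p = 0.111). Without TMM, 7 of the list were higher.

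Of 8 listed mitochondrial factors of cell death 7 were tested, 5 were lower and 2 were higher (median log2 fold change -0.69). Cyt-c-p, the somatic cytochrome c of the respiratory chain, had 64.1 CPM in EcRi and 271.6 CPM in the control (log2 fold change -2.08, adjusted p = 7.27e-06). AIF, a mitochondrial flavoprotein, had a log2 fold change of -1.64 (adjusted p = 1.17e-05) and Drp1, which divides mitochondria, one of -0.90 (adjusted p = 0.000106). Pink1, a kinase of mitochondrial quality control, rose by 0.44 on the log2 scale (adjusted p = 0.00526) and Marf, which fuses mitochondria, by 0.29 (adjusted p = 0.0203, or 0.0690 with the replicate block). Without TMM, 3 genes of this list were lower.

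Upstream of the antagonists, 13 of 18 genes of the JNK, p53 and Hippo pathways were higher and 2 were lower (median log2 fold change 0.42). The largest rises were those of grnd, a receptor of the TNF ligand Eiger (log2 fold change 1.56, adjusted p = 1.98e-05), Traf4, an adaptor of JNK signalling (1.48, adjusted p = 0.000134) and kay, the fly Fos (1.04, adjusted p = 1e-04). mei-41, the ATR kinase, and bsk, the JNK itself, had log2 fold changes of -0.42 (adjusted p = 0.0470) and -0.31 (adjusted p = 0.0120), and both were positive without TMM (0.23 and 0.35). Without TMM, 17 of the list were higher and 0 were lower.

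Of 12 tested genes of DNA fragmentation and corpse engulfment, 7 were higher and 2 were lower (median log2 fold change 0.60). SIMU, an engulfment receptor also named NimC4, had a log2 fold change of 1.96 (adjusted p = 0.0148) at only 0.246 CPM in EcRi and 0.0628 CPM in the control. SIMU had 32, 124 and 59 counts in the EcRi libraries, against 18, 6 and 10 in the control libraries, with EcRi replicate 2 the highest, as for the haemocyte genes NimC1 and Hml, whose part in it was not tested. Ced-6, an engulfment adaptor, had one of 1.53 (adjusted p = 2.07e-05) and Drep1, a relative of the inhibitor of caspase-activated DNase, one of 0.91 (adjusted p = 0.00192). Drep2, a family member studied mainly in neurons, had a log2 fold change of -2.40 (adjusted p = 1.86e-05). The small GTPase Rac1 had one of -0.54 (adjusted p = 0.000852), which was 0.12 without TMM. With that scaling 10 of the list were higher and 1 was lower.

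Of 27 tested autophagy genes, 20 were higher and 1 was lower in EcRi (median log2 fold change 0.61), against 30.1% higher and 29.3% lower among all entries. The largest rises were those of Atg18b, a phosphoinositide-binding protein (log2 fold change 2.34, adjusted p = 5.52e-06), Atg1, the kinase that starts autophagy (1.71, adjusted p = 1.53e-05) and Atg17, a partner of Atg1 (1.45, adjusted p = 3.81e-05). Atg10, an enzyme of the Atg12 conjugation system, had a log2 fold change of -0.65 (adjusted p = 0.00960), and it was 0.00171 without TMM. With that scaling 26 of the list and 57.3% of all entries were higher.

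Of 16 regulators of the ecdysone response that are tied to cell death genes, 9 were higher and 1 was lower (median log2 fold change 0.42). The nuclear receptor Hr4 had the largest rise (log2 fold change 4.42, standard error 0.20, adjusted p = 3.60e-06). Hr3, a receptor of the early late response, had a log2 fold change of 3.49 (adjusted p = 0.000807) at only 0.196 CPM in EcRi and 0.0169 CPM in the control. Eip93F, a factor needed for the death of the larval midgut and salivary glands, had 3.82 CPM in EcRi and 0.917 CPM in the control (log2 fold change 2.05, adjusted p = 0.00150). usp, the partner of EcR, had a log2 fold change of -0.39 (adjusted p = 0.00268), which was 0.26 without TMM. With that scaling 14 of the list were higher and 0 were lower. Eip74EF, an ETS factor of the early ecdysone response, had 9.61 CPM in EcRi and 9.36 CPM in the control and did not pass (adjusted p = 0.946).

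**Figure D5:**
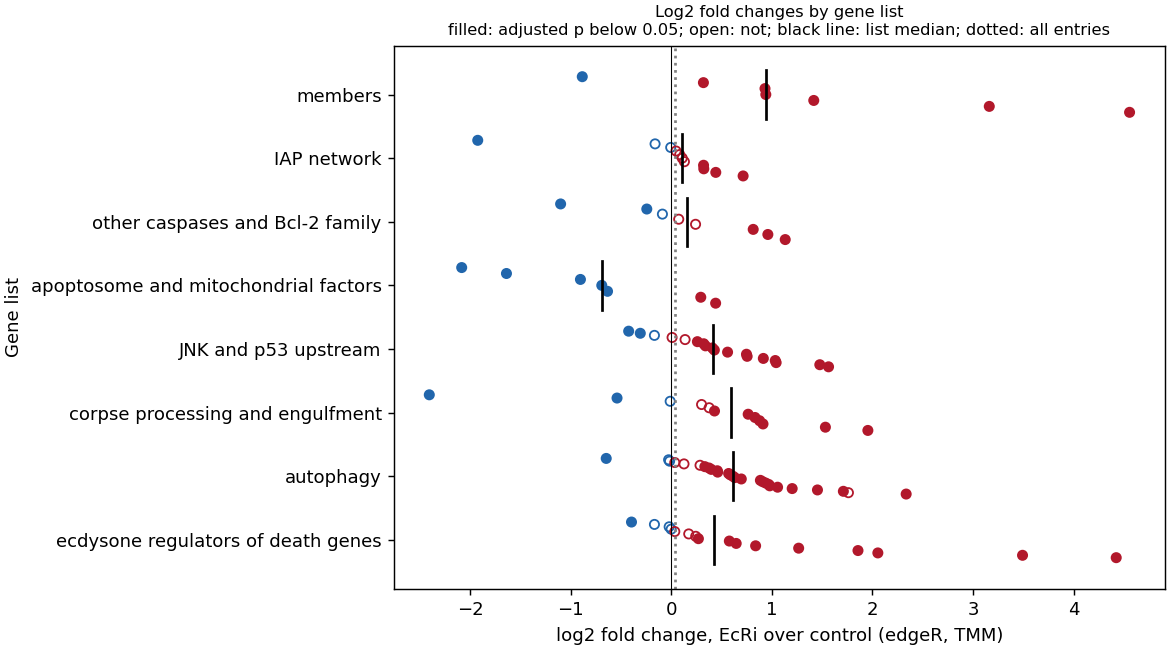
Log2 fold change of EcRi over control (x axis, edgeR with TMM) of each tested gene in the group described here and in 7 further lists (y axis), red above 0 and blue below 0, filled where the adjusted p is below 0.05. Black lines mark the list medians, from -0.69 for mitochondrial factors to 0.61 for autophagy among the 7 lists, and the dotted line the median of all entries at 0.03.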

How the data were processed

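Total RNA of whole intestines was sequenced after a SMARTer library preparation. The sample labels name a Qiagen kit for extraction and the methods name TRIZOL. On the Galaxy server, the authors removed adaptors (Trim Galore!), mapped reads to dm6 (HISAT2), ran featureCounts and deposited the raw counts per gene without normalization. Tool versions, strand setting and the handling of shared reads are not given in the sources used here. Both deposited tables are identical, and 1 was used. Among values from 1 to 20, between 62.0 and 65.3% were even in each library, against 48.5 to 51.6% among values from 100 to 1000. Low counts may thus hold both reads of a pair, and the limit of 3 counts covers counting error only. No 2 libraries of a genotype were copies.

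The main test was that of edgeR 4.0.16 under R 4.3.3 (filterByExpr, TMM, robust quasi-likelihood test, Benjamini-Hochberg adjustment over 12193 entries). The authors name limma-voom, which was run as an alternative, as were DESeq2 1.42.0, RLE factors, total counts, 2 other filters, genes only, a replicate block, each library left out, and a stricter threshold of 0.01. The standard error is the log2 fold change divided by the root of F. Exact permutation of the libraries (two-sided, log2 CPM with prior count 2) gave p = 0.1 for skl and for each of the 7 tested genes, the smallest p that 3 libraries against 3 allow. Exon lengths and coordinates come from Ensembl BDGP6, which matched 99.78% of gene identifiers. The named genes are the 9 chosen ones, EcR, up to 3 called genes per direction in each list, the genes of the antagonist interval and the 3 genes most like rpr and Dcp-1. Other genes were named after their values were seen: STUB1, pita, Diap2, Decay, Eip74EF and the single marker genes. The genes and lists were chosen with earlier results of these data known. The marker Dl is named Delta in the annotation. Whether the libraries came from separate cultures is stated only as biological replicates.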

Additional observations from a re-analysis of the deposited data

How the results depend on the processing

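For the 7 tested genes, 98 of 105 comparisons with an alternative kept the direction and the side of the threshold, 7 no longer passed and 0 changed sign. These comparisons include the totals without the 100 most abundant entries and leave out the threshold of 0.01. With that threshold 5 of the genes were higher and 1 was lower, since Diap1 (adjusted p = 0.0237, edgeR) no longer passed. Over all alternatives the log2 fold change lay between 4.47 and 5.20 for rpr, 2.86 and 3.78 for hid, 1.30 and 2.07 for Dronc, 0.83 and 1.59 for Drice, and 0.83 and 1.58 for Dark, with adjusted p values up to 0.00611. Diap1 lay between 0.26 and 0.97; it was 0.32 with replicate number as a block (adjusted p = 0.0599), and with each library left out it lay between 0.26 and 0.38, with 5 of these 6 fits no longer passing. Dcp-1 was -0.22 without TMM (adjusted p = 0.0960), a scaling that left 0 of the 9 genes lower, and between -0.98 and -0.77 with each library left out. Without TMM, 6982 entries were higher and 1546 lower in place of 3676 and 3574, a share of 57.3% higher and 12.7% lower. Totals without the 100 most abundant entries, chosen after seeing the data, gave 5618 higher and 2290 lower, and the cause was not tested. Without gene length, the log2 ratio of antagonists to Diap1 differed by 3.49 between genotypes in place of 3.91, since the short rpr then weighs less. Of the 14 counts over the 7 further lists, 9 moved by over 1.5 times without TMM, 3 with the replicate block, 1 with DESeq2 and 0 with limma-voom or RLE factors. Deviations of same-numbered libraries of the genotypes had correlations between -0.06 and 0.04, against -0.03 to 0.08 for libraries of different numbers. With 3 libraries per genotype, these values cannot show whether the numbers pair the libraries. The block changed no call of the 7 genes other than that of Diap1. With 3 libraries per genotype, the call of Diap1 under TMM scaling was close to the threshold.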

Other observations

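Over the 6 libraries, the genes with log2 CPM most like those of rpr were CG5390, spz4 and CG31869 (Pearson's r of 0.9999, 0.9999 and 0.9997), and those most like Dcp-1 were Sod3, an extracellular superoxide dismutase, Ucp4A, a mitochondrial carrier, and Mtap, a phosphorylase of the methionine salvage pathway (0.9994, 0.9988 and 0.9986). These values describe the likeness among 8648 genes with a mean of at least 1 CPM, and they are dominated by the difference between genotypes, since 1561 genes had r above 0.95 with rpr and 1477 with Dcp-1. spz4, a gene of the spätzle family of secreted ligands, had 17.5 CPM in EcRi and 0.204 CPM in the control (log2 fold change 6.42, adjusted p = 3.17e-07). Sod3 had 81.6 CPM in EcRi and 163.8 CPM in the control (adjusted p = 0.000472, edgeR).

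hid and its neighbour CG7320 shared the order of their control libraries, with 506, 273 and 134 counts for hid and 181, 62 and 40 for CG7320 in control replicates 1, 2 and 3. The order was shared by the fat body genes Lsp1beta (77171, 18303 and 4966 counts), apolpp (11595, 2123 and 770 counts) and Fbp2 (7840, 223 and 122 counts), and EcR was also highest in control replicate 1. Raw counts of Diap1 (37910, 30858 and 28494) and Dark (1510, 984 and 953) fell in this order as well, whereas their CPM did not. rpr did not share the order, with 138, 140 and 110 counts in control replicates 1, 2 and 3. In EcRi replicates 1, 2 and 3, Lsp1beta had 103.3, 83.8 and 423 CPM, and hid had 13.4, 16.3 and 14.8 CPM. The part of fat body RNA in the spread of hid and CG7320 was not tested.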
